A study of Mus musculus with 16 samples.

Results

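Laminin chains and integrin subunits were examined by RNA sequencing in 16 cultures of mouse pluripotent stem cells. Genes were taken by name, as every gene whose symbol is that of a laminin α, β or γ chain or of an integrin α or β subunit. This gave 37 of the 34042 genes in the count table, 11 for laminin chains and 26 for integrin subunits. The naive embryonic stem cell group (ES) held 4 libraries of E14IV-C cells kept in 2iL, at passages 12, 13, 15 and 20. Formative stem cells (FS) were grown in A3XR medium and gave 6 libraries, replicates 1 to 3 from the line 5ar1 at passages 10, 12 and 14, and replicates 4 to 6 from the line 5ar3 at passages 12, 4 and 5. Epiblast stem cells gave 6 libraries. The EpiSC_AFX group was the AFX6 line, kept in AFX and sampled at passages 12, 5 and 8, and the EpiSC_AF group was the AF32 line, kept in AF and sampled at passages 13, 14 and 15. No genetic change or added treatment is named for any group. Replicates are passages of a line, so p-values measure the spread between these samples, which may be technical. Outside FS each group is 1 line, and line and medium cannot be told apart. The data are from bulk cultures, in which fewer cells of a type and less RNA per cell cannot be told apart.

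Laminins are secreted trimers of an α, a β and a γ chain that polymerise into the basement membrane, the sheet of matrix under epithelia. Integrins are cell surface receptors made of an α and a β subunit, and the pairing sets the ligand: α3, α6 and α7 subunits bind laminins, α5, α8 and αv subunits bind matrix proteins that carry an RGD tripeptide, and a further set serves leukocytes. In the early mouse embryo the inner cells of the blastocyst become a polarised epiblast on a laminin-rich basement membrane, and signalling through β1 integrin is known to take part in that step.

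Library totals ranged from 22069338 to 33290250 counts. The mitochondrial rRNA gene mt-Rnr2 took 9.96% to 38.1% of a library, with the highest share in ES replicate 1. ES replicate 1 also stood apart from the other ES libraries, with a chi-square over degrees of freedom of 222 to 261 against them, where ES replicates 2 to 4 differed among themselves by 8.4 to 16.4 and other pairs from 1 line by 24.9 to 119. Results against ES are therefore given with it, and those it changes also without it. The labelled cell types were checked against marker lists. The summed level of 6 naive markers was 2280 to 3580 CPM in ES and 3.82 to 12.9 CPM in all other libraries, and that of 4 postimplantation epiblast markers was 39.6 to 103 CPM in ES and 834 to 2250 CPM elsewhere. The 4 general pluripotency markers summed to 675 to 1580 CPM in every library. Markers of other cell types also moved with the groups. The 10 primitive and parietal endoderm markers summed to 3.96 to 4.89 CPM in ES, 3.86 to 18 in FS, 5.28 to 43.7 in EpiSC_AFX and 54.9 to 159 in EpiSC_AF. The 8 fibroblast markers summed to 5.32 to 5.47 CPM in ES, 20.4 to 45.1 in FS, 19 to 30 in EpiSC_AFX and 43.8 to 89.5 in EpiSC_AF. The 7 trophoblast markers summed to 5.74 to 8.09 CPM in ES, 4.79 to 9.86 in FS, 4.13 to 15.4 in EpiSC_AFX and 10.3 to 17.8 in EpiSC_AF. The part of such cells in the differences given here was not tested.

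Of the 37 genes, 30 had enough counts to be tested, 10 laminin chains and 20 integrin subunits. The other 7 were Lamc3, Itga2, Itga11, Itgad, Itgam, Itgax and Itgb6, none of which exceeded 8 counts in a library, and Itgax was at 0 in all 16. Differences are log2 fold changes with their standard error (SE) from edgeR's quasi-likelihood test, with a call where p, adjusted by Benjamini-Hochberg over all 18555 tested genes, was under 0.05. Levels are CPM, counts scaled to a common library size with TMM factors, and levels of different genes are compared only after division by exon length (CPM per kb).

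The widest changes lay between ES and the other 3 groups. In FS against ES, 13 of the 30 tested genes were higher and 11 lower, where 32.9% of all tested genes were called higher and 29.9% lower. For EpiSC_AF against ES the count was 13 higher and 9 lower, against 29.7% and 27% of all genes. EpiSC_AFX against ES gave 12 higher and 8 lower, against 28.5% and 26.2%. The median log2 fold change of the 30 genes was 0.53, 1.012 and 0.69 in these comparisons, and that of all tested genes was 0.04, 0.015 and 0.01. These 3 comparisons share the ES libraries, so their values are not independent. Without ES replicate 1 the counts were 13 higher and 11 lower in FS, 13 and 8 in EpiSC_AF, and 13 and 7 in EpiSC_AFX. Of all 18556 genes then tested, 6114 were higher and 5335 lower in FS, 5626 and 4879 in EpiSC_AF, and 5401 and 4717 in EpiSC_AFX. With ES replicate 1 kept, 3 laminin chains were higher in each comparison, and 5, 4 and 3 were lower in FS, EpiSC_AF and EpiSC_AFX. In the same fit and order, 10, 10 and 9 integrin subunits were higher, and 6, 5 and 5 were lower.

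Fewer genes separated FS from the EpiSC groups. In FS against EpiSC_AFX, 2 were higher and 4 lower, where 2.89% and 2.1% of all genes were called, and the median was -0.17 against 0.04 for all genes. In FS against EpiSC_AF, 2 were higher and 7 lower, where 7.84% and 8.81% of all genes were called, and the median was -0.27 against 0.04. EpiSC_AFX and EpiSC_AF differed in none of the 30 genes by edgeR, where 1.43% of all genes were called higher in EpiSC_AFX and 2.83% lower. At an unadjusted p under 0.05 that comparison gave 5 of the 30 genes. The share of all genes at that threshold was not counted, so the 5 have no background to be read against. DESeq2 called 3, where it called 1383 of all 18555 tested genes. The line 5ar1 against the line 5ar3, both FS, gave 3 higher and 1 lower, where 1.86% and 2.02% of all genes were called.

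**Figure D1:**
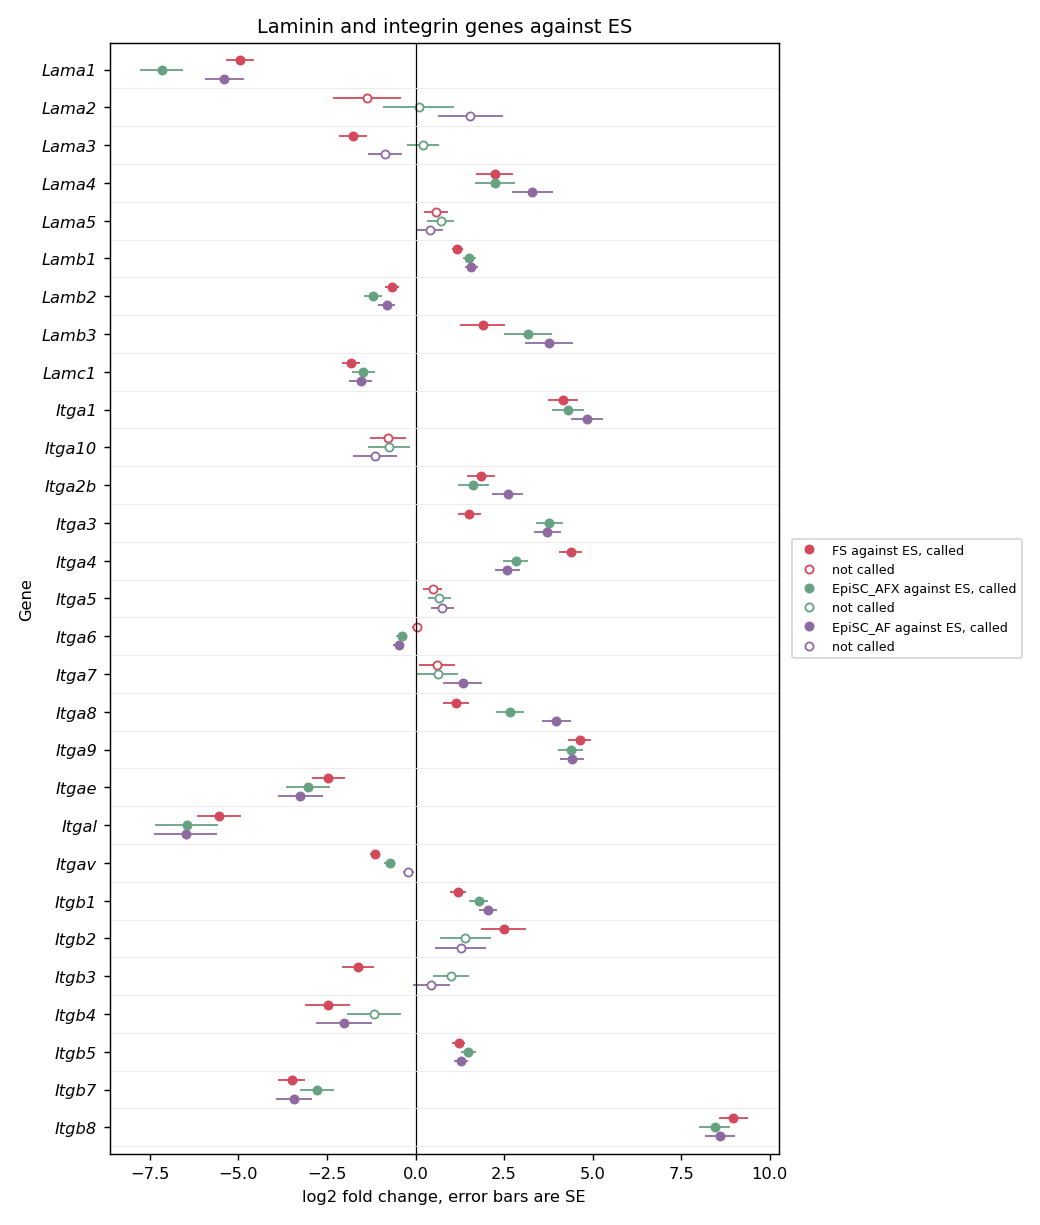
Log2 fold change (horizontal axis) of tested laminin and integrin genes (rows) in FS, EpiSC_AFX and EpiSC_AF against ES, with SE bars. Filled points passed an adjusted p of 0.05 and open points did not. Lama1 and Itgal lie farthest to the left and Itgb8, whose ES libraries held at most 2 counts and whose fitted values are no measure of size, farthest to the right.

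Promoter windows from RefSeq (GRCm38.p6) were found for 23 of the 37 genes. Of these, 4 are shown because they belong to genes that stand for the patterns described here. Lama5 is the laminin α chain that leads outside ES, and Itga3 rose in FS and further in both EpiSC groups. Itgb8 was at the floor of detection in ES, and Itgb7 was highest in ES. Each run is the 250 bases before the RefSeq start, 5′ to 3′ on the strand of the gene, with CpG dinucleotides in capitals. Itga3 also has a window at chr11:95069199-95069448, and the one with more CpG is shown. The RefSeq start of Itga3, Itgb8 and Itgb7 lies inside the gene as GENCODE draws it.
Lama5, chr2:180225860-180226109, minus strand: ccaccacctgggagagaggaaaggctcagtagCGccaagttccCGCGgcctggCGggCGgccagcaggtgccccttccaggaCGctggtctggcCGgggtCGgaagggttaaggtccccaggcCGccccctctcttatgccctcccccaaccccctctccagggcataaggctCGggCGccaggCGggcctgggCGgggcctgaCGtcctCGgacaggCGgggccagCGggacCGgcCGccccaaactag
Itga3, chr11:95076715-95076964, minus strand: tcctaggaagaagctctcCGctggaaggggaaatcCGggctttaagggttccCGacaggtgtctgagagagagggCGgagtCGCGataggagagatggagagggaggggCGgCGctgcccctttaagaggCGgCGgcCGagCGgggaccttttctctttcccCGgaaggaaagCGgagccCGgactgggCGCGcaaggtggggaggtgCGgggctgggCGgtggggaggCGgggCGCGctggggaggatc
Itgb8, chr12:119238277-119238526, minus strand: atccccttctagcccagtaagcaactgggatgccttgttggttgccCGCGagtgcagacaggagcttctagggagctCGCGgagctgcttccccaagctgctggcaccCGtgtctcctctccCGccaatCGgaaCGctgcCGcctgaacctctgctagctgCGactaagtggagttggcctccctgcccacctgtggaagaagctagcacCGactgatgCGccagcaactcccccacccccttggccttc
Itgb7, chr15:102231936-102232185, minus strand: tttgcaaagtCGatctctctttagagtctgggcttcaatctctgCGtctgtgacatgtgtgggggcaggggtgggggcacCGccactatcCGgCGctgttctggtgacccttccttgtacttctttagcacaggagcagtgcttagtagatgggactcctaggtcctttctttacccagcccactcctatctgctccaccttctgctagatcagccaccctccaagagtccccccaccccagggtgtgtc
The windows shown for Itga3 and Lama5 held 22 and 19 CpG, that of Itgb8 held 12 and that of Itgb7 held 5. The Itga3 window that is not shown held 5. Over 32851 mouse promoter windows of this length the median was 6, with quartiles of 2 and 16. The GC box, searched as GGGCGG on both strands, was found 4 times at Lama5, 3 times at Itga3 and in neither of the other windows shown. The Itga3 window that is not shown held 1 GC box. The GC box was present for 8 of the 23 genes and in 32.7% of all windows. No window, of 26 for these 23 genes, held the Pou octamer ATGCAAAT, which 1.6% of all windows hold, or the Esrrb site CAAGGTCA, which 1.33% hold. None held the E-box CACGTG (6.02% of all windows), the TATA box TATAAA (12.4%) or the Tcf/Lef site CTTTGAT (3.21%), each searched on both strands.

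The laminin α chain, which carries the main site for cell receptors, showed the plainest change of member between ES and the other groups. Lama1 (ENSMUSG00000032796, chr17:67697259-67822647, plus strand) encodes the α1 chain of the earliest embryonic basement membranes. It measured 241, 206, 309 and 169 CPM in the ES libraries. The FS libraries had 2.90 CPM at the lowest, a median of 7.85 and 12.5 at the highest. EpiSC_AFX had 2.02, 2.00 and 0.813 CPM, and EpiSC_AF 3.92, 6.41 and 6.05. No library outside ES came near the ES range. Lama1 was lower than in ES by a log2 fold change of -4.96 in FS (SE 0.400, adjusted p = 1.25e-08), -7.16 in EpiSC_AFX (SE 0.611, adjusted p = 4.36e-08) and -5.41 in EpiSC_AF (SE 0.552, adjusted p = 3.43e-07). Markers of primitive and parietal endoderm, which also make this chain, summed to at most 4.89 CPM in any ES library and to 54.9 to 159 CPM in EpiSC_AF. The part of such cells in the Lama1 levels was not tested.

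Lama1 also differed below the ES level. All 6 FS libraries lay above the EpiSC_AFX libraries, with a log2 fold change of 2.21 (SE 0.491, adjusted p = 0.015). That call was lost without EpiSC_AFX replicate 3 (1.88, adjusted p = 0.103) and with the line 5ar1 alone (1.18, adjusted p = 0.0819), as well as with no filter on low counts or only these groups fitted (adjusted p = 0.0568 and 0.0619). The FS lines themselves did not overlap: 5ar1 had 5.19, 2.90 and 2.95 CPM and 5ar3 had 10.5, 12.5 and 10.9, a log2 fold change of -1.62 for 5ar1 against 5ar3 (SE 0.304, adjusted p = 0.00558). Against EpiSC_AF, Lama1 in FS overlapped and did not pass the test (0.45, adjusted p = 0.532). With the line 5ar3 alone that difference was 1.055 and passed (adjusted p = 0.0188). EpiSC_AFX against EpiSC_AF, whose libraries did not overlap, gave -1.76 (adjusted p = 0.0752). It passed with the DESeq2 Wald test (adjusted p = 0.0114), with only these groups fitted (adjusted p = 0.0154) and without FS replicate 2 or 3 (adjusted p = 0.0465 and 0.0417).

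Lama5 (ENSMUSG00000015647, chr2:180176373-180225859, minus strand) encodes the α5 chain, the broadly expressed chain of later basement membranes. It had 70.0, 125, 130 and 116 CPM in ES, a range of 61.2 to 319 CPM with a median of 141 in FS, 225, 156 and 159 in EpiSC_AFX and 114, 141 and 181 in EpiSC_AF. The FS libraries spanned the levels of every other group. Lama5 passed the test in none of the 7 comparisons, and its log2 fold change against ES was 0.57 in FS (SE 0.333), 0.71 in EpiSC_AFX (SE 0.385) and 0.40 in EpiSC_AF (SE 0.386). Without FS replicate 6, its lowest library, the FS value was 0.75 and passed (adjusted p = 0.0326), as it did with the line 5ar1 alone (0.86, adjusted p = 0.0239) and with scaling by total counts (0.93, adjusted p = 0.0489). The EpiSC_AFX value passed with only these groups fitted (0.74, adjusted p = 0.0187).

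Per exon length, Lama1 made up 69.9% ± 7.91 (SD, n = 4) of all laminin α chain RNA in ES and Lama5 28.8% ± 7.44. In FS the order was the opposite, with Lama5 at 90.3% ± 5.73 (SD, n = 6) and Lama1 at 6.72% ± 6.17. Lama5 took 94.6% ± 0.185 in EpiSC_AFX and 89.3% ± 1.53 in EpiSC_AF (SD, n = 3 each), and Lama1 0.998% ± 0.427 and 3.98% ± 0.725. The Lama1 share never fell below 62.3% in ES and never exceeded 16.9% elsewhere. The 5ar3 line kept the larger share of the FS lines, 11.3% ± 5.74 against 2.18% ± 0.518 in 5ar1 (SD, n = 3 each). The sum of α chain RNA was 34.0 ± 6.76 CPM per kb in ES, 15.6 ± 8.02 in FS, 16.7 ± 3.62 in EpiSC_AFX and 14.2 ± 3.10 in EpiSC_AF. These shares are descriptions and were not tested.

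**Figure D2:**
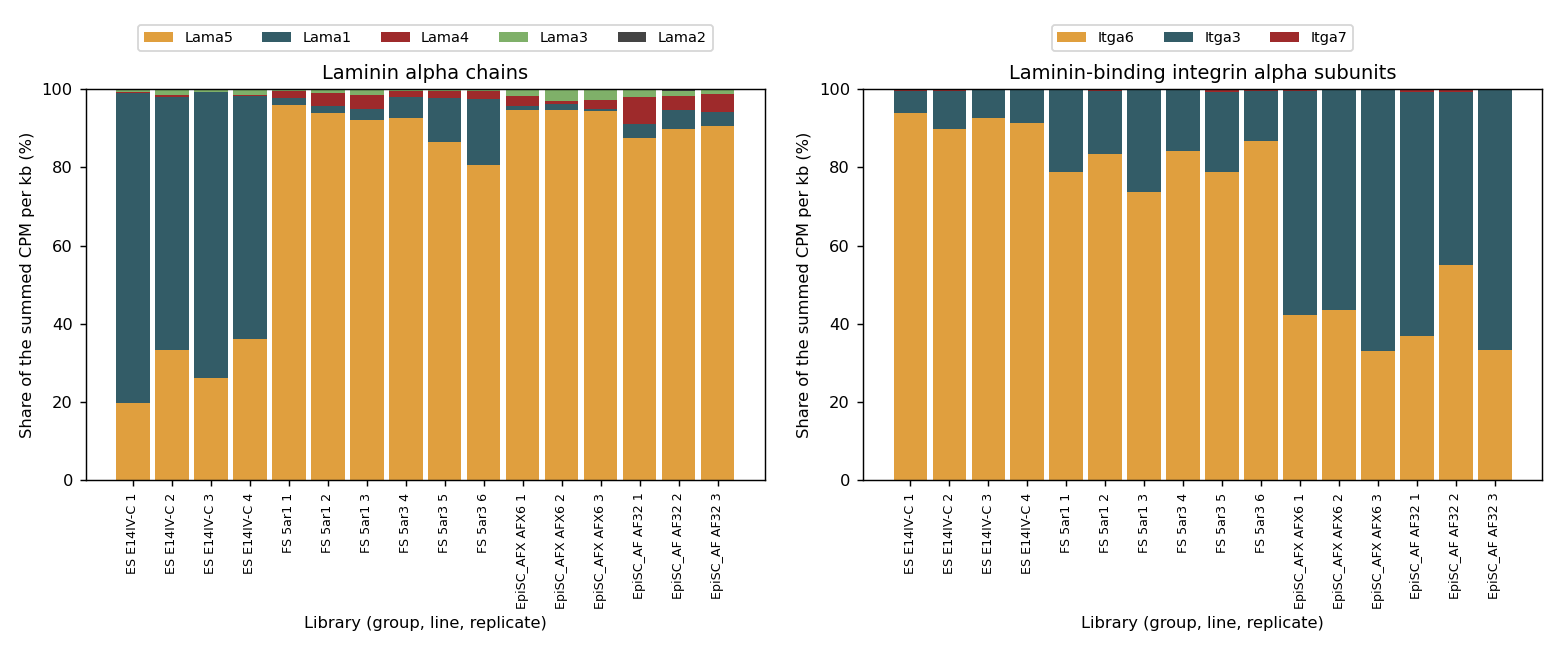
Share of the summed CPM per kb (vertical axis, %) taken by each laminin α chain (left) and each laminin-binding integrin α subunit (right) in every library, ordered by group, line and replicate. Lama1 holds 62.3% to 79.6% of the α chain bars in ES and Lama5 80.5% or more in every other library. Itga6 holds 73.7% or more of the integrin bars in ES and FS and 55% or less in both EpiSC groups.

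The remaining α chains were scarce. Lama4, the α4 chain of vessel and mesenchymal basement membranes, had 0.276, 1.90, 0.775 and 0.425 CPM in ES and 1.602 to 6.02 CPM in FS, with a median of 4.18. It had 6.65, 1.71 and 3.97 CPM in EpiSC_AFX and 9.42, 6.24 and 9.91 in EpiSC_AF. All EpiSC_AF libraries exceeded ES, while the highest ES library overlapped FS and EpiSC_AFX. The log2 fold change against ES was 2.24 in FS (SE 0.523, adjusted p = 0.00125), 2.25 in EpiSC_AFX (SE 0.574, adjusted p = 0.00314) and 3.30 in EpiSC_AF (SE 0.579, adjusted p = 0.000118).

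Lama3, the α3 chain of epithelial hemidesmosomes, was low throughout, with 2.42 to 4.70 CPM in ES, 3.34 to 4.499 in EpiSC_AFX and 1.73 to 2.15 in EpiSC_AF. It was lower in FS, at 0.283 to 1.79 CPM, than in ES (-1.77, SE 0.398, adjusted p = 0.000891) and than in EpiSC_AFX (-1.98, SE 0.419, adjusted p = 0.0102), though with only these groups fitted the latter missed the threshold (adjusted p = 0.054). In 5ar1 it had 1.37, 1.56 and 1.79 CPM and in 5ar3 0.761, 0.368 and 0.283, which gave 1.72 for 5ar1 against 5ar3 (SE 0.372, adjusted p = 0.0149). This line difference lost its call without FS replicate 3, 5 or 6 (adjusted p = 0.061, 0.0753 and 0.0792). Lama2, the α2 chain of muscle basement membranes, never exceeded 0.948 CPM. It was called lower in FS than in EpiSC_AF (-2.91, adjusted p = 0.0296), and leaving out any 1 of FS replicates 1 and 2 or any EpiSC_AF library moved the adjusted p to between 0.0501 and 0.155.

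**Figure D3:**
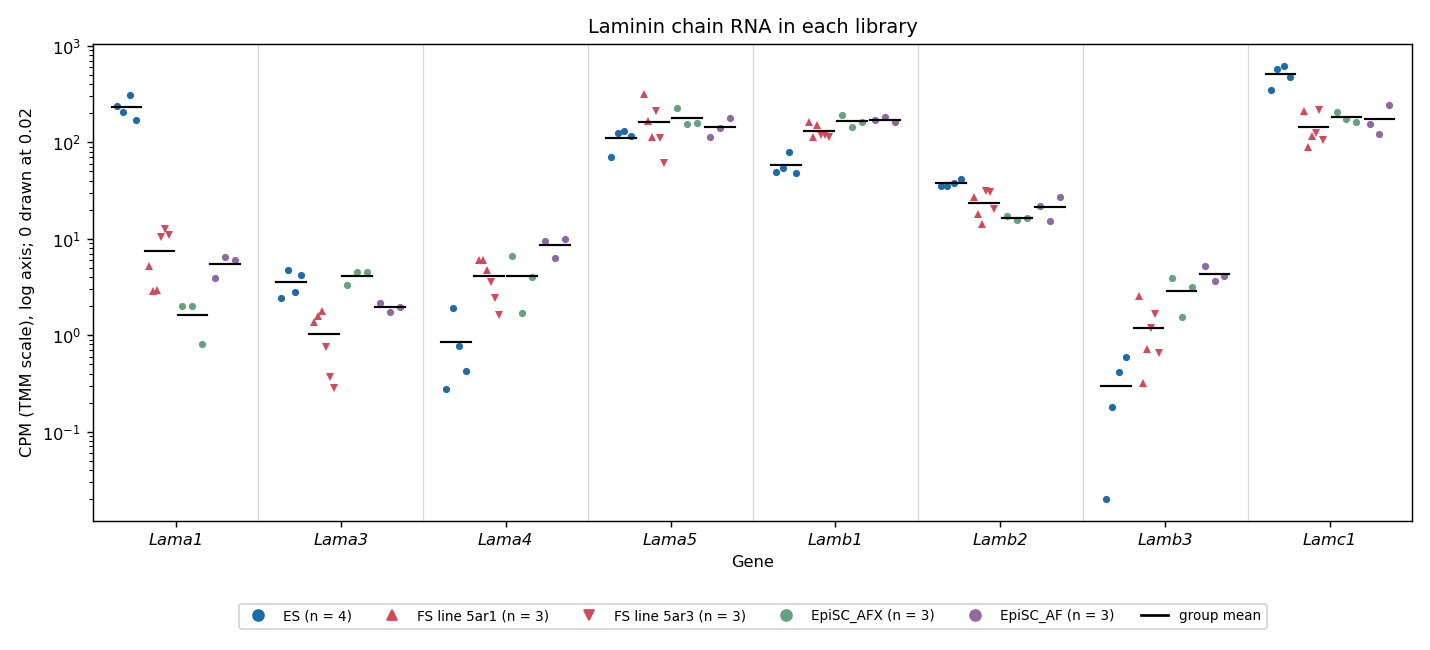
CPM (vertical axis, log scale, with 0 drawn at 0.02) of 8 laminin chains in every library, by group. Points are libraries, triangles mark the FS lines and black bars are group means. Lama1, Lamc1 and Lamb2 are highest in ES, Lamb1 is lowest in ES, and Lama5 overlaps between ES and FS.

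The main β chains moved in opposite directions. Lamb1 (ENSMUSG00000002900, chr12:31265234-31329644, plus strand), the β1 chain of early embryonic laminin, had 49.7, 54.2, 78.7 and 47.7 CPM in ES and 114 to 162 CPM in FS, with a median of 120. It had 190, 144 and 161 CPM in EpiSC_AFX and 170, 183 and 161 in EpiSC_AF. Every library outside ES lay above every ES library. The log2 fold change was 1.18 in FS (SE 0.156, adjusted p = 4.51e-06), 1.52 in EpiSC_AFX (SE 0.177, adjusted p = 1.49e-06) and 1.57 in EpiSC_AF (SE 0.178, adjusted p = 9.76e-07).

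Lamb2, the β2 chain found in kidney and synaptic basement membranes, moved the other way. It had 35.5, 35.0, 37.7 and 41.9 CPM in ES, 14.2 to 31.4 CPM in FS with a median of 23.7, 17.3, 15.5 and 16.4 in EpiSC_AFX and 21.7, 15.3 and 27.2 in EpiSC_AF. No other library reached the lowest ES value. Its log2 fold change was -0.67 in FS (SE 0.203, adjusted p = 0.00831), -1.195 in EpiSC_AFX (SE 0.250, adjusted p = 0.00064) and -0.81 in EpiSC_AF (SE 0.247, adjusted p = 0.00966). The FS and EpiSC_AF calls were lost with scaling by total counts (-0.31 and -0.56, adjusted p = 0.282 and 0.116), and the FS call with the line 5ar3 alone (-0.44, adjusted p = 0.0603). The EpiSC_AF call was also lost without EpiSC_AF replicate 2 (-0.62, adjusted p = 0.0636).

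Per length, Lamb1 and Lamb2 were near equal in ES, at 47.8% ± 6.27 and 51.8% ± 6.19 of β chain RNA (SD, n = 4), whose ranges overlapped. Lamb1 took 76.4% ± 6.32 in FS (SD, n = 6), 84.2% ± 0.596 in EpiSC_AFX and 80.5% ± 4.89 in EpiSC_AF (SD, n = 3 each). The sum of β chain RNA was 12.02 ± 1.5 CPM per kb in ES and 17.2 ± 2.36, 19.8 ± 2.65 and 21.4 ± 0.126 in these groups. Lamb3, the β3 chain of skin laminin, was at most 0.595 CPM in ES and 5.21 CPM in any library. It was called higher than in ES in FS (1.89, adjusted p = 0.0138, with overlap), EpiSC_AFX (3.17, adjusted p = 0.000783) and EpiSC_AF (3.77, adjusted p = 0.000157), and lower in FS than in EpiSC_AF (-1.87, adjusted p = 0.0229). The last call was lost without EpiSC_AF replicate 1 or 3 (adjusted p = 0.101 and 0.061).

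The γ1 chain was highest in ES. Lamc1 (ENSMUSG00000026478, chr1:153218922-153332786, minus strand), the γ1 chain shared by most laminins, had 352, 578, 625 and 473 CPM in ES and 89.1 to 216 CPM in FS, with a median of 120. EpiSC_AFX had 209, 176 and 164 CPM, and EpiSC_AF 155, 122 and 241. The ES range stood above all other libraries. Lamc1 had a log2 fold change of -1.82 in FS (SE 0.252, adjusted p = 7.09e-06), -1.47 in EpiSC_AFX (SE 0.314, adjusted p = 0.000745) and -1.55 in EpiSC_AF (SE 0.315, adjusted p = 0.000449). It was nonetheless the main γ chain in every group, at 89.6% ± 1.02 of γ chain RNA per length in ES, 91.2% ± 4.74 in FS, 87.4% ± 6.58 in EpiSC_AFX and 92.7% ± 4.03 in EpiSC_AF.

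Among the integrin α subunits that bind laminins, Itga3 and Itga6 differed in where they changed. Itga3 (ENSMUSG00000001507, chr11:95044474-95076801, minus strand) encodes α3, which pairs with β1 and prefers laminins with the α5 or α3 chain. It had 6.77, 14.1, 8.57 and 9.74 CPM in ES and 14.2 to 39.1 CPM in FS, with a median of 27.9. The levels were 109, 136 and 159 CPM in EpiSC_AFX and 156, 56.8 and 175 in EpiSC_AF. The highest ES library lay just below the lowest FS library, all EpiSC libraries stood above FS, and the EpiSC groups overlapped with each other. Against ES the log2 fold change was 1.51 in FS (SE 0.326, adjusted p = 0.000627), 3.78 in EpiSC_AFX (SE 0.383, adjusted p = 2.81e-07) and 3.71 in EpiSC_AF (SE 0.382, adjusted p = 3.18e-07). FS was lower than EpiSC_AFX by -2.26 (SE 0.318, adjusted p = 0.000433) and than EpiSC_AF by -2.20 (SE 0.318, adjusted p = 0.000145). Both differences of FS from the EpiSC groups were called in every alternative tried, and among tested laminin and integrin genes Itga3 alone had this in both.

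Itga6 (ENSMUSG00000027111, chr2:71745616-71858416, plus strand), which pairs with β1 or β4 and is a widely used surface marker of stem cells, was abundant in every group. It had 180, 205, 180 and 165 CPM in ES, 154 to 233 CPM in FS, 127, 166 and 124 in EpiSC_AFX and 146, 111 and 138 in EpiSC_AF. FS and ES overlapped (0.04, SE 0.131, adjusted p = 0.796). EpiSC_AF was lower than ES by -0.47 (adjusted p = 0.0166) and EpiSC_AFX by -0.40 (adjusted p = 0.0407). Both calls were lost with scaling by total counts (adjusted p = 0.45 and 0.607). The first was lost without EpiSC_AF replicate 2 (-0.36, adjusted p = 0.0994), and the second without any 1 of EpiSC_AF replicate 3, EpiSC_AFX replicates 1 and 3 and ES replicates 1 to 3 (adjusted p between 0.0518 and 0.164). FS exceeded EpiSC_AF by 0.51 (adjusted p = 0.0232), a call lost without EpiSC_AF replicate 2 (0.40, adjusted p = 0.147) or 3 (0.55, adjusted p = 0.0606) and with scaling by total counts (adjusted p = 0.0575).

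Per length, Itga6 made up 92.0% ± 1.81 of the RNA of the laminin-binding α subunits in ES and 81.0% ± 4.79 in FS. Itga3 rose from 7.72% ± 1.81 in ES to 18.7% ± 4.80 in FS, 60.2% ± 5.88 in EpiSC_AFX and 57.8% ± 11.8 in EpiSC_AF (SD, n = 4, 6, 3 and 3). The highest Itga3 share in FS was 26.1% and the lowest in the EpiSC groups was 44.4%, so that Itga3 led in 5 of the 6 EpiSC libraries and in no FS or ES library. Itga7, the muscle subunit, never exceeded 1.99 CPM, and its only call, in EpiSC_AF against ES (1.34, adjusted p = 0.0487), was lost without most single libraries.

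**Figure D4:**
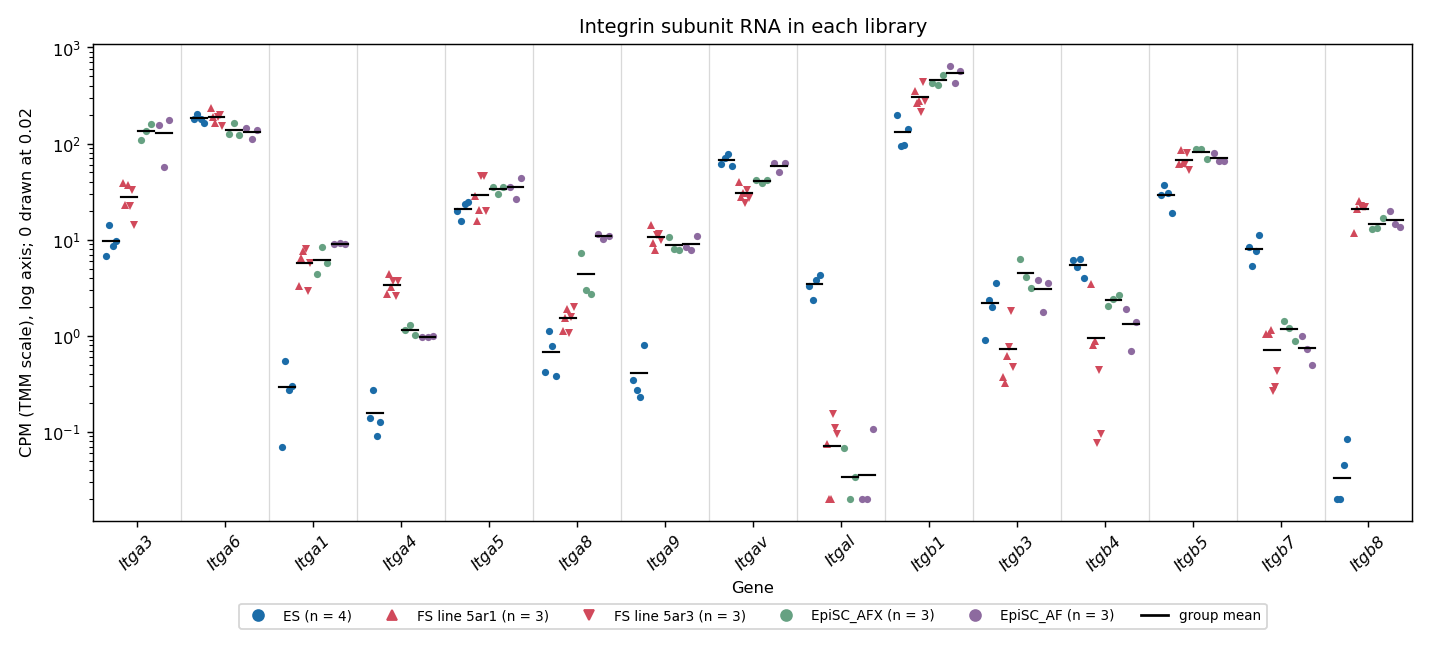
CPM (vertical axis, log scale, with 0 drawn at 0.02) of 15 integrin subunits in every library, by group. Points are libraries, triangles mark the FS lines and black bars are group means. Itga3 rises from ES through FS to the EpiSC groups, Itga9 and Itgb8 are low in ES and near level elsewhere, and Itgal and Itgb7 are highest in ES.

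The RGD-binding α subunits moved in different directions. Itga8 (chr2:12106632-12301922, minus strand), which pairs with β1 and binds nephronectin, had 0.415, 1.13, 0.775 and 0.383 CPM in ES and 1.07 to 1.98 CPM in FS, with a median of 1.54. EpiSC_AFX had 7.32, 2.999 and 2.75 CPM and EpiSC_AF 11.4, 10.2 and 10.8. The EpiSC_AF libraries stood above all others. Against ES the log2 fold change was 1.15 in FS (SE 0.362, adjusted p = 0.0109), 2.66 in EpiSC_AFX (SE 0.402, adjusted p = 2.62e-05) and 3.97 in EpiSC_AF (SE 0.409, adjusted p = 3.23e-07). FS was lower than EpiSC_AF by -2.83 (SE 0.331, adjusted p = 2.16e-05) and than EpiSC_AFX by -1.52 (SE 0.336, adjusted p = 0.014). The EpiSC_AFX difference fell to -0.92 without EpiSC_AFX replicate 1 (adjusted p = 0.151). Between EpiSC_AFX and EpiSC_AF it was -1.31 (adjusted p = 0.0727). It passed without EpiSC_AFX replicate 1 (-1.91, adjusted p = 0.0102), with DESeq2 (adjusted p = 0.0154) and with only these groups fitted (adjusted p = 0.0487).

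Itgav (ENSMUSG00000027087, chr2:83724397-83806916, plus strand), the αv subunit that pairs with several β subunits to bind vitronectin and to release latent TGFβ, was lower in FS than in ES and EpiSC_AF. It had 62.0, 71.6, 77.1 and 59.1 CPM in ES, 23.8 to 39.4 CPM in FS with a median of 29.1, 41.9, 38.8 and 41.3 in EpiSC_AFX and 62.8, 50.5 and 62.4 in EpiSC_AF. FS did not overlap with ES or EpiSC_AF, and EpiSC_AF overlapped with ES. Itgav in FS differed by -1.16 from ES (SE 0.133, adjusted p = 8.29e-07) and by -0.95 from EpiSC_AF (SE 0.143, adjusted p = 0.000207). EpiSC_AFX differed from ES by -0.73 (SE 0.162, adjusted p = 0.00104), a call lost with scaling by total counts (-0.50, adjusted p = 0.0585). Against EpiSC_AFX the FS value was -0.43 (adjusted p = 0.108), and it passed without FS replicate 1 (-0.52, adjusted p = 0.0302). EpiSC_AFX against EpiSC_AF gave -0.53 (adjusted p = 0.0966). It passed with DESeq2 (adjusted p = 0.0423) and with only these groups fitted (adjusted p = 0.0139).

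Itga5, the main fibronectin receptor subunit, ranged from 15.5 to 46.1 CPM over all libraries and passed the test in none of the 7 comparisons. Its log2 fold change against ES was 0.48 in FS, 0.68 in EpiSC_AFX and 0.75 in EpiSC_AF, and each of these passed with scaling by total counts (adjusted p = 0.0241, 0.0426 and 0.0232). The EpiSC_AF value also passed without any 1 of FS replicates 2, 4 and 5 or EpiSC_AF replicate 2 (adjusted p between 0.0371 and 0.043). With only the groups compared, the EpiSC_AF and EpiSC_AFX values passed (adjusted p = 0.00846 and 0.0064). The EpiSC_AF value passed with DESeq2 (adjusted p = 0.0475), and the FS value with the line 5ar3 alone (0.84, adjusted p = 0.0116). The FS lines differed in Itga5 by -0.81 (adjusted p = 0.144), which passed without FS replicate 1 or 6 (adjusted p = 0.0453 and 0.031). Itga2b, the platelet subunit, was called higher than in ES in all 3 groups (1.86, 1.63 and 2.60 in FS, EpiSC_AFX and EpiSC_AF) at levels of at most 3.11 CPM. The 9 leukocyte and platelet markers summed to at most 0.677 CPM in any library, and the part of such cells in the Itga2b levels was not tested.

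The collagen-binding subunit Itga1 (chr13:114953096-115101964, minus strand) had 0.0691, 0.542, 0.273 and 0.298 CPM in ES, 2.95 to 7.99 CPM in FS with a median of 6.05, 4.39, 8.46 and 5.69 in EpiSC_AFX and 8.94, 9.18 and 9.06 in EpiSC_AF. Every library outside ES lay above the highest ES value. Itga1 was higher than in ES by 4.17 in FS (SE 0.426, adjusted p = 1.94e-07), 4.30 in EpiSC_AFX (SE 0.453, adjusted p = 4.53e-07) and 4.85 in EpiSC_AF (SE 0.456, adjusted p = 1.09e-07). Itga10, another collagen receptor, stayed at or under 0.669 CPM and was not called. It passed as lower than ES in FS without FS replicate 2 (-1.16, adjusted p = 0.0495) and in EpiSC_AF without EpiSC_AF replicate 2 (-1.98, adjusted p = 0.0314).

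Itga9 (chr9:118606690-118901003, plus strand), a subunit that pairs with β1 and binds tenascin and osteopontin, had 0.346, 0.271, 0.228 and 0.808 CPM in ES, 7.79 to 14.1 CPM in FS with a median of 10.5, 10.7, 7.998 and 7.83 in EpiSC_AFX and 8.33, 7.88 and 10.9 in EpiSC_AF. The 3 groups other than ES overlapped with one another and with no ES library. Their log2 fold changes against ES were 4.64, 4.38 and 4.41 (SE 0.326, 0.342 and 0.342, adjusted p = 1.73e-09, 1.2e-08 and 1.1e-08). Itga4, the related α4 subunit that binds fibronectin and VCAM, was low but highest in FS. It had 2.58 to 4.37 CPM in FS, 1.15, 1.29 and 1.02 in EpiSC_AFX, 0.964, 0.981 and 0.991 in EpiSC_AF and 0.0911 to 0.271 in ES. FS exceeded ES by 4.38 (adjusted p = 4.11e-09), EpiSC_AFX by 1.55 (adjusted p = 0.00381) and EpiSC_AF by 1.78 (adjusted p = 0.000387), and its libraries overlapped with none of these groups. Exons of Itga4 share 1124 bases with Cerkl on the opposite strand, which had 0.214 to 3.60 CPM, and reads of the pair cannot be told apart since the strand setting of the counting is not given.

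Each integrin dimer also needs a β subunit. Itgb1 (ENSMUSG00000025809, chr8:128685654-128733200, plus strand), the common partner of most α subunits above, had 198, 93.8, 96.3 and 141 CPM in ES, 212 to 436 CPM in FS with a median of 279, 430, 412 and 521 in EpiSC_AFX and 647, 425 and 569 in EpiSC_AF. The highest ES library lay just below the lowest FS library. Itgb1 was higher than in ES by 1.2 in FS (SE 0.228, adjusted p = 0.000195), 1.78 in EpiSC_AFX (SE 0.259, adjusted p = 1.75e-05) and 2.05 in EpiSC_AF (SE 0.260, adjusted p = 3.77e-06). FS differed from EpiSC_AF by -0.85 (SE 0.233, adjusted p = 0.0183) although FS replicate 5 overlapped. That call was lost without EpiSC_AF replicate 1 or 3 (adjusted p = 0.116 and 0.0679). Per length it made up 71.1% ± 8.31 of β subunit RNA in ES, 77.0% ± 4.64 in FS, 81.0% ± 3.60 in EpiSC_AFX and 85.5% ± 1.87 in EpiSC_AF.

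Itgb5 (chr16:33829665-33949338, plus strand), a partner of αv, had 29.3, 37.2, 30.5 and 18.8 CPM in ES, 52.5 to 86.6 CPM in FS with a median of 62.1, 87.7, 87.4 and 69.3 in EpiSC_AFX and 79.97, 65.96 and 65.9 in EpiSC_AF. All libraries outside ES exceeded all ES libraries. The log2 fold change was 1.22 in FS (SE 0.181, adjusted p = 1.54e-05), 1.49 in EpiSC_AFX (SE 0.204, adjusted p = 9.02e-06) and 1.29 in EpiSC_AF (SE 0.204, adjusted p = 4.19e-05).

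Itgb8 (ENSMUSG00000025321, chr12:119158022-119238802, minus strand), an αv partner that releases latent TGFβ, was near the floor in ES, with 0, 0, 1 and 2 counts in the 4 libraries. It measured 11.9 CPM at the lowest, a median of 21.8 and 25.2 CPM at the highest in FS, 12.99, 13.1 and 17.0 in EpiSC_AFX and 19.6, 14.6 and 13.5 in EpiSC_AF. The lowest FS library was replicate 1, and FS overlapped with both EpiSC groups. With ES set at 3 counts per library, Itgb8 was at least 136-fold higher in FS, at least 94.7-fold higher in EpiSC_AFX and at least 105-fold higher in EpiSC_AF (adjusted p = 1.17e-11, 9.31e-11 and 7.25e-11).

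Itgb3, the β3 partner of αv, was lower in FS than in the other groups, at 0.319 to 1.81 CPM, against 0.898 to 3.57 in ES, 6.27, 4.04 and 3.15 in EpiSC_AFX and 3.83, 1.77 and 3.50 in EpiSC_AF. FS differed from ES by -1.62 (SE 0.457, adjusted p = 0.00521), from EpiSC_AFX by -2.63 (SE 0.474, adjusted p = 0.00346) and from EpiSC_AF by -2.06 (SE 0.477, adjusted p = 0.00632). FS replicate 5 overlapped with ES and EpiSC_AF. With the line 5ar3 alone, the ES and EpiSC_AF differences were -1.11 and -1.55 and did not pass (adjusted p = 0.0684 and 0.0546).

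Itgb4, which pairs with α6 in hemidesmosomes, had 6.15, 5.19, 6.29 and 3.95 CPM in ES, 0.0761 to 3.45 CPM in FS with a median of 0.619, 2.02, 2.43 and 2.68 in EpiSC_AFX and 1.90, 0.686 and 1.38 in EpiSC_AF. ES stood above all other libraries. The change from ES was -2.48 in FS (SE 0.635, adjusted p = 0.0026) and -2.02 in EpiSC_AF (SE 0.790, adjusted p = 0.0372). The EpiSC_AF call was lost without any single EpiSC_AF library and without ES replicate 1, 2 or 3 (adjusted p between 0.0512 and 0.129), and with scaling by total counts (adjusted p = 0.0702). In EpiSC_AFX it was -1.18 (adjusted p = 0.199). FS and EpiSC_AFX overlapped through FS replicate 1, and without it the difference was -2.33 (adjusted p = 0.0162). The FS libraries were split by line, with 3.45, 0.797 and 0.880 CPM in 5ar1 and 0.0761, 0.442 and 0.0942 in 5ar3, a difference of 2.98 (SE 0.661, adjusted p = 0.0172) that was lost without FS replicate 4 (2.57, adjusted p = 0.0619) or 6 (2.67, adjusted p = 0.0866).

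Of the subunits known from leukocytes, Itgb7, Itgal and Itgae were highest in ES. Itgb7 (chr15:102215995-102231944, minus strand), the β7 partner of α4 and αE, had 8.29, 5.33, 7.61 and 11.1 CPM in ES, 0.266 to 1.15 CPM in FS with a median of 0.731, 1.42, 1.21 and 0.881 in EpiSC_AFX and 0.996, 0.719 and 0.495 in EpiSC_AF. No other library reached the lowest ES value. The log2 fold change was -3.49 in FS (SE 0.388, adjusted p = 5.28e-07), -2.78 in EpiSC_AFX (SE 0.484, adjusted p = 0.000115) and -3.44 in EpiSC_AF (SE 0.505, adjusted p = 1.86e-05). The lines did not overlap, with 1.04, 1.05 and 1.15 CPM in 5ar1 and 0.266, 0.295 and 0.424 in 5ar3, a difference of 1.72 (SE 0.379, adjusted p = 0.0164) that was lost without FS replicate 3, 4 or 5 (adjusted p between 0.0543 and 0.0713).

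Itgal, the αL subunit, had 3.32, 2.35, 3.78 and 4.29 CPM in ES and at most 0.152 CPM in any other library. It was lower by -5.55 in FS (SE 0.613, adjusted p = 5.09e-07), at least 33.2-fold lower in EpiSC_AFX and at least 34.3-fold lower in EpiSC_AF (adjusted p = 9.16e-06 and 8.5e-06), where those libraries held at most 3 counts. FS libraries held at most 4 counts, also near the floor. The fitted FS value ran from -6.968 to -4.775 over the alternatives. Itgae, the αE subunit, had 0.893 to 3.04 CPM in ES and at most 0.482 CPM elsewhere, with log2 fold changes of -2.46, -3.04 and -3.25 in FS, EpiSC_AFX and EpiSC_AF (adjusted p = 0.000192, 0.000496 and 0.000294). The shared leukocyte subunit Itgb2 was at most 0.837 CPM, and its call was higher in FS than in ES (2.49, adjusted p = 0.00232). ES libraries held 1 to 4 counts of Itgb2, near the floor, so the size of this difference is uncertain. Without ES replicate 1, EpiSC_AFX and EpiSC_AF were also called higher than ES (adjusted p = 0.0297 and 0.0393). The leukocyte and platelet markers, among them Ptprc (CD45), summed to 0.273 to 0.677 CPM in ES. Their part in these results was not tested.

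**Figure D5:**
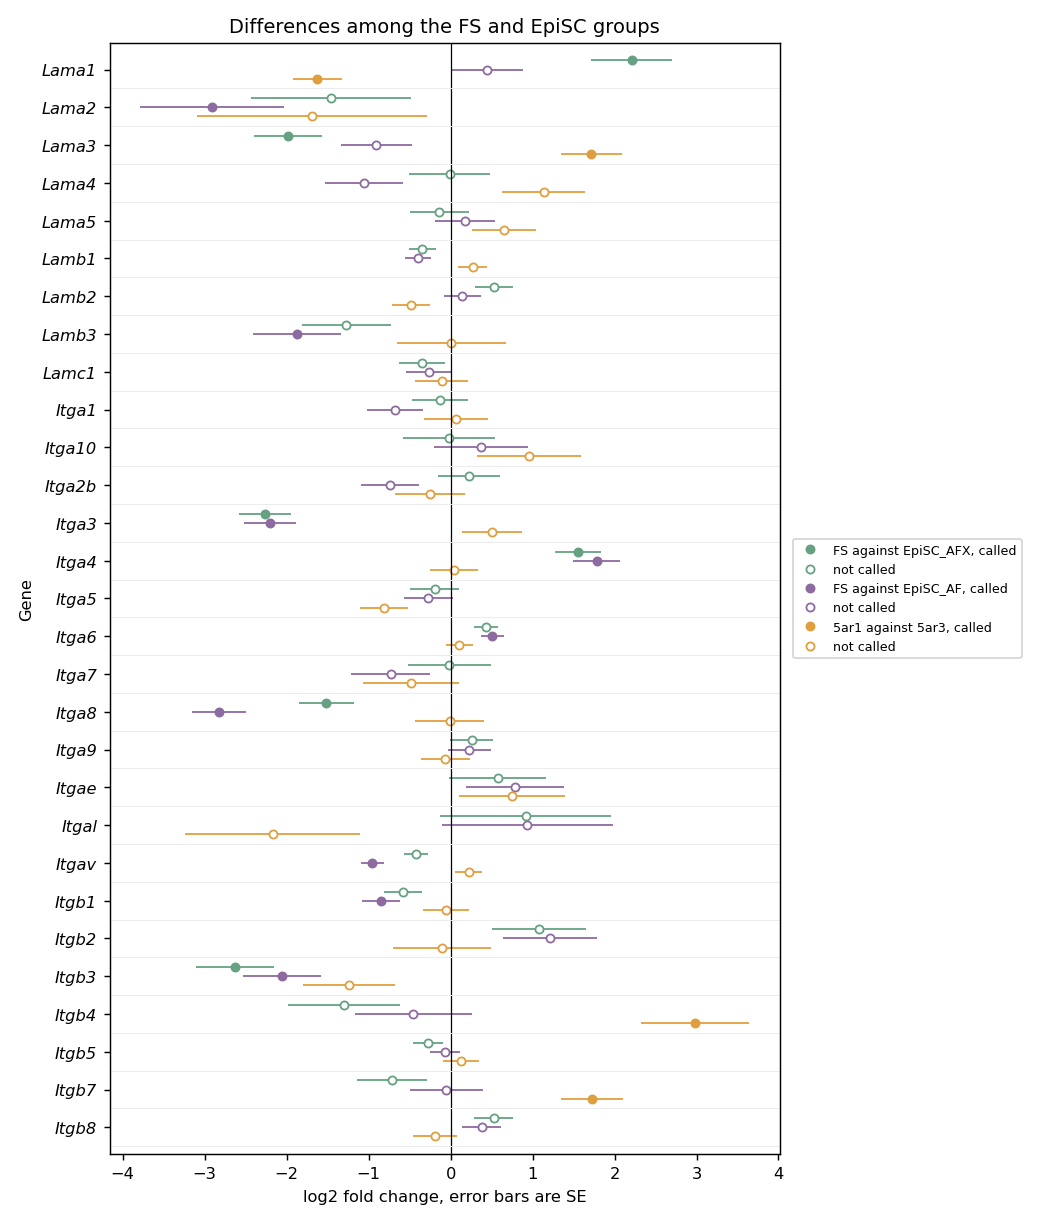
Log2 fold change (horizontal axis) of tested laminin and integrin genes (rows) in FS against EpiSC_AFX, FS against EpiSC_AF and the line 5ar1 against 5ar3, with SE bars. Filled points passed an adjusted p of 0.05 and open points did not. Itga3, Itga8 and Itgb3 are filled on the left and Itga4 on the right in both EpiSC comparisons.

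Set per length, the order of the genes also changed. Lamc1 led in ES at 61.3 ± 14.6 CPM per kb, above Itgb1 at 32.4 ± 12, Lama1 at 23.9 ± 6.15 and Itga6 at 20.2 ± 1.85, and these last did not differ beyond their spread. Itgb1 led in every other group, at 74.4 ± 19.3 in FS, 111 ± 14.4 in EpiSC_AFX and 134 ± 27.5 in EpiSC_AF. In FS it was followed by Itga6 at 20.8 ± 3.09, Itgb5 at 18.95 ± 3.63, Lamc1 at 17.4 ± 6.64 and Lama5 at 14.4 ± 8.02, and the neighbours in this order overlapped. In the EpiSC groups Itga3 stood next, at 23.6 ± 4.37 in EpiSC_AFX and 22.6 ± 11.1 in EpiSC_AF, within the spread of Itgb5 and Lamc1.

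Genes whose products work with laminins and integrins were counted from lists. Of 9 basement membrane partners, all tested, 5 were higher and 2 lower in FS against ES, 5 and 2 in EpiSC_AF and 4 and 2 in EpiSC_AFX, with list medians of 0.99, 0.97 and 0.45. Over all tested genes the shares were 32.9% and 29.9%, 29.7% and 27%, and 28.5% and 26.2% in that order, and the medians 0.04, 0.015 and 0.01. Nid1, the nidogen that links laminin γ1 to collagen IV, fell from 513 ± 128 CPM in ES (SD, n = 4) to 6.52 ± 2.15 in FS (SD, n = 6), by -6.30 (SE 0.324, adjusted p = 3.46e-11), and by -6.13 in EpiSC_AFX. Col4a1, a collagen IV chain, went from 1.39 ± 0.810 CPM in ES to 47.9 ± 6.05 in FS, with 5.07 (SE 0.312, adjusted p = 3.29e-10), and to 5.85 above ES in EpiSC_AF and 4.86 in EpiSC_AFX. Ntn4, a netrin that binds laminin γ chains, was at most 2 counts in ES and at least 13.7-fold higher in FS, 19.4-fold in EpiSC_AF and 10.3-fold in EpiSC_AFX. FS against EpiSC_AFX gave 1 higher and 1 lower (2.89% and 2.1% of all genes), and FS against EpiSC_AF 1 higher and 4 lower (7.84% and 8.81%). EpiSC_AFX against EpiSC_AF gave 2 lower (2.83%).

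Of 5 other laminin receptors, 1 was higher and 3 lower in FS against ES, and 1 and 2 in each EpiSC group, with list medians of -0.59 in FS, -0.46 in EpiSC_AF and -0.33 in EpiSC_AFX. Among all genes 32.9% were higher and 29.9% lower in FS, 29.7% and 27% in EpiSC_AF, and 28.5% and 26.2% in EpiSC_AFX, with medians of 0.04, 0.015 and 0.01. With 5 genes, these counts cannot be told from that background. Sdc4, a syndecan, was lower (-1.98, -2.04 and -2.52 in FS, EpiSC_AFX and EpiSC_AF) and Sdc1 higher (1.68, 1.43 and 1.34), with adjusted p between 1.18e-07 and 9.45e-06. Rpsa, also lower in FS (-0.87, adjusted p = 0.00112), has many near-identical copies and its counts are uncertain.

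Of 12 tested integrin ligands, 5 were higher and 4 lower in FS against ES, 7 and 5 in EpiSC_AF, and 5 and 5 in EpiSC_AFX, with list medians of 0.91, 1.80 and -0.58. These stand beside 32.9% and 29.9%, 29.7% and 27%, and 28.5% and 26.2% of all genes, and all-gene medians of 0.04, 0.015 and 0.01. Thbs1, thrombospondin, was 0.344 ± 0.144 CPM in ES and 102 ± 118 in FS, a log2 fold change of 8.16 (SE 0.987, adjusted p = 2.33e-06). Spp1, osteopontin, was 502 ± 264 CPM in ES and 9.07 ± 6.05 in FS, a log2 fold change of -5.78 (SE 0.555, adjusted p = 1.65e-07). Tnc, tenascin C, had at most 3 counts in ES and 6.92 ± 5.61 CPM in FS, 42.1 ± 17.2 in EpiSC_AFX and 44.8 ± 24.5 in EpiSC_AF. FS was lower in Tnc than EpiSC_AFX by -2.61 (SE 0.498, adjusted p = 0.00584) and than EpiSC_AF by -2.70 (SE 0.498, adjusted p = 0.00127). Fn1, fibronectin, was given by level alone, at 763 ± 130 CPM in ES, 68.6 ± 26.8 in FS, 87.0 ± 21.9 in EpiSC_AFX and 112 ± 24.2 in EpiSC_AF. All 3 groups hold more fibroblast marker RNA than ES, as given above, and its part in Tnc and Thbs1 was not tested.

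Of 25 tested genes of the integrin adhesion machinery, 11 were higher and 7 lower in FS against ES, 9 and 7 in EpiSC_AF, and 11 and 6 in EpiSC_AFX, with list medians of 0.23, 0.21 and 0.10. The background was 32.9% and 29.9%, 29.7% and 27%, and 28.5% and 26.2% of all genes, with medians of 0.04, 0.015 and 0.01. Zyx, zyxin, rose by 3.76 in FS, 4.55 in EpiSC_AFX and 4.66 in EpiSC_AF, and Parva, the α-parvin that joins ILK to actin, by 3.54, 3.54 and 4.10, with adjusted p of at most 1.17e-08. Fermt1, a kindlin that activates β integrins, had at most 3 counts in ES and at most 2 in EpiSC_AF. It had 3.05 ± 2.26 CPM in FS, at least 20.1-fold above ES and at least 30.4-fold above EpiSC_AF, and differed between the FS lines, with 4.98 ± 1.25 in 5ar1 and 1.12 ± 0.314 in 5ar3 (2.15, SE 0.380, adjusted p = 0.00363).

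Exons of Itga7, Itga8, Itgav, Itgb4 and Lama3 also overlap a gene on the opposite strand, and reads there cannot be assigned with certainty. Those neighbours stayed at or under 0.101 CPM. Itga10 shares 1739 exon bases with Gm42957 on the same strand, which had at most 0.135 CPM.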

How the data were processed

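RNA of 16 cultures was sequenced with a directional kit, per the labels' protocols. The authors deposited raw counts per gene, with symbols and Ensembl identifiers. The submitters' processing notes name Trim Galore, TopHat2 2.1.0, featureCounts 1.5.0 and mm10; the annotation release and strand setting are not given in the sources used here. A further 6 columns matched no sample and were not used.

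Tests used edgeR 4.0.16 (R 4.3.3). Low-count genes were dropped with filterByExpr, TMM factors scaled the libraries, and a robust quasi-likelihood model was fitted, with a mean per group over all 16 libraries or, between the FS lines, a mean per line. Adjusted p-values are Benjamini-Hochberg over 18555 genes per comparison. Totals ranged from 22069338 to 33290250 counts, and floors of 3 counts cover counting error only. Pairs of libraries from the same line differed beyond sampling noise (chi-square over degrees of freedom of 8.4 to 261, the highest with ES replicate 1), so none was treated as a repeat. Exon lengths and positions came from GENCODE vM21 (GRCm38), which held all 37 genes.

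The genes and lists were chosen with earlier results of these data known. Values in every library are given for laminin and integrin genes called in a comparison with a log2 fold change of 1 or more in size whose highest group mean reached 5 CPM; Lama5, Itga6, Itga4, Itgb3, Itgal and Lama3 were added after their values were seen. Of other lists, the 3 called genes with the largest fold change in a comparison were named, and others by level. Alternatives were DESeq2 1.42.0 size factors and Wald test, scaling by total counts, no filter, a test against a log2 change of 1, only the groups compared, single FS lines and leaving out each library. Replicate numbers were given in accession order and do not pair libraries. Values of 1 tested laminin gene are not reported here, although it is counted in the totals.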

Additional observations from a re-analysis of the deposited data

Results flagged for a closer look

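In ES and FS, 60 sets of values were checked for a library that stands apart, and 5 in FS held one. Chance gives about 1 in 20 where all libraries are alike, and the FS sets mix both lines. The EpiSC groups have too few libraries for this check and were not checked. Itgb8 in FS replicate 1 was 11.9 CPM, below the 20.9 to 25.2 CPM of the other FS libraries. Itgb4 in FS replicate 1 was 3.45 CPM, against 0.0761 to 0.880 CPM. FS replicate 5 stood above the others for Itgb3, at 1.81 CPM against 0.319 to 0.761, and for Itga7, at 1.51 CPM against 0.381 to 0.765. Itga10 in FS replicate 2 was 0.669 CPM, against 0.141 to 0.297 CPM.

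The FS lines, which share a medium, differed by the test of the line difference itself in 4 genes. Passages also differed, at 10, 12 and 14 for 5ar1 and 12, 4 and 5 for 5ar3, and the part of passage was not tested. The log2 fold change of 5ar1 against 5ar3 was 2.98 for Itgb4, 1.72 for Lama3, 1.72 for Itgb7 and -1.62 for Lama1 (edgeR, adjusted p = 0.0172, 0.0149, 0.0164 and 0.00558). Over all tested genes 1.86% were called higher and 2.02% lower in 5ar1. Libraries of the lines did not overlap for any of these 4 genes. The genes were picked by the test on the same libraries, so the lack of overlap adds no support.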

How the results depend on the processing

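The 30 tested genes gave 85 calls over the 7 comparisons. Of these, 52 were called in every alternative run, 66 in every alternative other than the test against a log2 change of 1, and none changed sign. The same count was not made over all tested genes, so these numbers do not set laminin and integrin genes apart from others. Against ES, the number called ranged from 15 to 26 in FS (24 as reported), 17 to 24 in EpiSC_AF (22) and 15 to 23 in EpiSC_AFX (20). Calls over all tested genes ranged from 5810 to 12969 in FS (11645 as reported), 5275 to 11121 in EpiSC_AF (10520) and 5064 to 10541 in EpiSC_AFX (10150). The test against a log2 change of 1, which asks more of each gene, left 15 genes in FS against ES, 2 in FS against EpiSC_AFX, 3 in FS against EpiSC_AF and 0 between the FS lines. Of all 18555 tested genes it left 5810, 158, 682 and 128 in that order. FS against EpiSC_AFX gave 11 genes with the line 5ar3 alone, against 6 as reported. Calls over all genes rose as well, from 927 of 18555 as reported to 1765 of 18255 with the line 5ar3 alone. FS against EpiSC_AF gave 5 to 9 genes when 1 library was left out, with 5 without EpiSC_AF replicate 3. Calls over all genes then ran from 1799 to 3620, with 1982 without EpiSC_AF replicate 3, against 3089 as reported. EpiSC_AFX against EpiSC_AF gave 3 genes with the DESeq2 Wald test, 4 with only the groups compared and 0 to 2 with 1 library left out, with 2 without EpiSC_AFX replicate 1. Calls over all genes were 1383, 2276 and 351 to 981 in that order, with 924 without EpiSC_AFX replicate 1, against 791 as reported. The FS lines gave 2 to 6 genes with 1 library left out, against 4, with 2 without FS replicate 3 or 4 and 6 without FS replicate 1, where Lamb2 passed (-0.79, adjusted p = 0.047). Calls over all genes were 289 and 759 without FS replicate 3 or 4 and 1567 without FS replicate 1, against 720 as reported. Itgb3 passed in EpiSC_AFX against ES without FS replicate 5 (1.007, adjusted p = 0.0466). Lama2 in EpiSC_AFX against ES, not called at 0.09, was fitted at -5.43 without EpiSC_AFX replicate 1, which held all 19 of its counts in that group. The remaining EpiSC_AFX libraries are at 0 and ES held 1 to 6 counts, so this value depends on the fit's handling of 0 and measures no difference. The cause of the other changes was not tested.

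Scaling by total counts moved the median over all tested genes (log2) from 0.04 to 0.40 in FS against ES, from 0.015 to 0.29 in EpiSC_AF and from 0.01 to 0.25 in EpiSC_AFX. Depth limits the genes near the floor, such as Itgal and Itgb8. No paired analysis was possible because replicate numbers follow accession order and the labels tie no number to a shared culture.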
